A study of Mus musculus with 6 samples.

Results

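The collagen chain genes of the mouse were taken as the protein-coding genes of RefSeq GRCm38 on chromosomes 1 to 19, X and Y whose symbol is Col, a number, a and a second number. The name alone chose them, and 44 of 21887 protein-coding genes met it, at 36 separate loci. The 44 genes were followed through 4 lists of regions called from CUT&Tag libraries, an assay in which an antibody carries a transposase to the chromatin it binds. All libraries came from mouse embryonic fibroblasts labelled OG2X129, taken in what the labels call ciPSC reprogramming.

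The 6 samples formed 3 groups of 2. CD-treated cells and DMSO-treated cells were each profiled for H3K27ac, acetylation of histone H3 that marks enhancers and promoters in use. The sample labels write only CD, while the series title names CD3254, known as an RXR agonist, and DMSO is the usual solvent control. The last group overexpressed Flag-tagged Rxra and was profiled with a Flag antibody. The labels do not give the age of the embryos, the dose or the day of sampling. They do not say which of CD or DMSO the Flag-Rxra cells received, what drove the transgene, or that replicates came from separate cultures. Overexpressed Rxra may occupy places that the cell's own Rxra does not, and endogenous Rxra was not measured. H3K27ac was deposited as 1 list per condition for both replicates, so a difference between CD and DMSO has no replicate check and carries no test. Flag-Rxra was deposited as 1 list per replicate.

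Collagens are triple-helical proteins of the extracellular matrix, each built from 3 chains that separate genes can encode. Fibrillar collagens form the fibres of skin, bone, tendon and cartilage, and fibroblasts secrete the type I and type III chains in bulk. Type IV chains form the network of basement membranes, type VI chains form beaded filaments around cells, and the FACIT chains sit on the surface of fibrils. Rxra is a nuclear receptor that binds DNA as a partner of other receptors such as the retinoic acid receptors. Down-regulation of fibroblast genes, collagens among them, is a known part of reprogramming fibroblasts to pluripotency.

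On the chromosomes used, the H3K27ac lists held 104437 regions in CD cells and 75482 in DMSO cells, covering 37.3 Mb and 31.12 Mb. For Flag-Rxra there were 28243 peaks from replicate 1 and 45999 from replicate 2, and 17623 replicate 1 peaks overlapped a replicate 2 peak by at least 1 bp. Those are called shared peaks. The fold and −log10 q of a peak or region are the authors' own values, the fold being over background. Regions were listed down to a −log10 q of 1.00 for H3K27ac and 5.00 for Flag-Rxra, and the sequencing depth behind them is unknown. Of 12 fibroblast marker genes, 5 had an H3K27ac region within 1 kb of a gene end in CD cells (38.3% of all genes) and 4 in DMSO cells (35.8%). Dcn, Lum, Thy1, Fbn1, Prrx1 and Postn had none in either list, although fibroblasts are known to express them, so a gene without a region is not thereby inactive. In bulk cells, fewer cells with the mark and less mark per cell cannot be told apart. The largest share of endothelial, macrophage, keratinocyte, chondrocyte or muscle markers so marked was 3 of 5, for endothelial genes in DMSO cells.

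Few collagen genes had Flag-Rxra at an end, and more had it inside. A shared peak lay within 1 kb of an end of 7 of 44 collagen genes (15.9%, exact 95% interval 6.64 to 30.1%), against 32.6% of all 21887 genes. The interval covers counting error only, and genes at 1 locus share peaks. Within 2.5 kb the shares were 25.0% of collagen genes and 37.0% of all genes. Where the replicates had to overlap by 50% of both peaks, 4 genes had one (20.2% of all genes), and at a −log10 q of 20 or more in both, 3 had one (24.2%). Inside the gene, an overlapping shared peak lay in 24 of 44 collagen genes (54.5%), against 39.5% of all genes. Collagen genes are long, however, with a median of 114410 bp against 17169 bp. Per length, 42 shared summits lay in the 5.443 Mb of collagen gene bodies, or 0.772 per 100 kb, against 0.908 per 100 kb over the bodies of all genes. Taken singly, the replicates gave an end peak at 12 collagen genes (27.3% against 41.7% of all genes) in replicate 1 and at 11 (25.0% against 42.1%) in replicate 2. Within 2.5 kb they gave 17 (38.6% against 47.4%) and 20 (45.5% against 50.4%), and inside the gene 28 (63.6% against 50.2%) and 36 (81.8% against 54.8%).

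**Figure D1:**
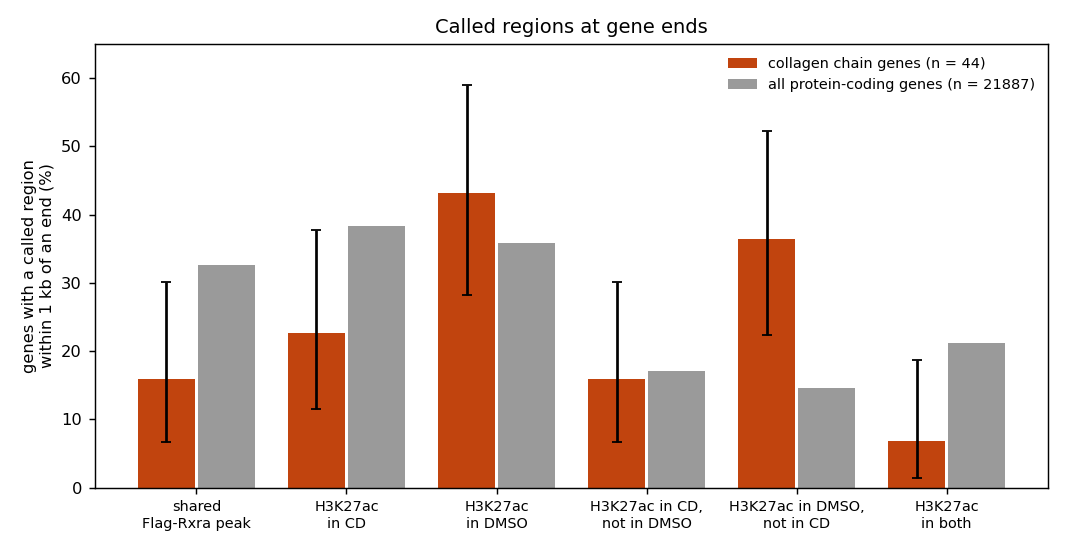
Share of genes (%) with a called region within 1 kb of a gene end, for the 44 collagen chain genes and all 21887 protein-coding genes. Bars are shares and error bars the exact 95% binomial interval over the 44 genes. The collagen bar lies below the bar of all genes for shared Flag-Rxra peaks (15.9 against 32.6%) and above it for H3K27ac in DMSO but not in CD (36.4 against 14.6%).

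The chains of type I collagen, the main fibrous protein of skin, bone and tendon, were both among the 7 genes. Col1a1 had a shared peak at chromosome 11, 94936838 to 94937112, with a fold over background of 6.95 (replicate 1) and 12.5 (replicate 2). Its summit lay 781 bp inside the lower-coordinate end of the gene. Col1a2 had a shared peak at chromosome 6, 4505439 to 4505623, with folds of 8.53 and 10.9 and a summit 4 bp before the annotated start. Both peaks were called in each replicate, with folds below the medians of 10.1 in replicate 1 and 14.3 in replicate 2 over the peaks inside collagen genes. Of the 9 other fibrillar genes, none had a shared peak within 1 kb of an end. Col5a1, whose chain helps set fibril diameter, had one farther in, 2570 bp from the lower end, with folds of 5.34 and 5.9.

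Among the other classes, 1 gene each of type IV, type VI, short-chain, FACIT and transmembrane collagens had a shared peak at an end. Col6a2, a chain of the type VI filaments, had folds of 8.53 in replicate 1 and 9.91 in replicate 2 at chromosome 10, 76623167 to 76623528. Col16a1, a FACIT chain, had folds of 6.94 and 9.76 at chromosome 4, 130047574 to 130048253. These peaks, like that of Col1a2, lay at an annotated start. Another 3 peaks lay past 3′ ends. Col8a2, a chain of the membrane under the corneal endothelium, had folds of 8.78 and 11.5 at 188 bp past its end. Col4a2, a basement membrane chain, had folds of 5.70 and 18.4 at 1126 bp past its end. Col23a1, a membrane-spanning collagen, had folds of 5.60 and 10.9 at 1091 bp past its end, within 1 kb of an end of the neighbouring gene Phykpl. In these 7 peaks the fold was higher in replicate 2 throughout, where it ranged from 9.76 to 18.4, against 5.60 to 8.78 in replicate 1. It was also higher in replicate 2 at 7816 of the 9370 shared peaks in the bodies of all genes.

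Counting only annotated starts, which the RefSeq promoter table gives for 35 of the 44 genes, 3 genes (8.57%, exact 95% interval 1.80 to 23.1%) had a shared peak within 1 kb, against 34.3% of 17492 genes with an annotated start. The replicates taken singly gave 9 of 35 (25.7% against 43.5% of all genes) in replicate 1 and 5 of 35 (14.3% against 43.1%) in replicate 2. Near the threshold of 1 kb, the genes just inside were Col23a1 and Col4a2, whose peaks reach into the window from summits farther out, and those just outside were Col17a1 at 1563 bp and Col15a1 at 2220 bp.

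A further 9 collagen genes had a Flag-Rxra peak at an end in a single replicate. In replicate 1 alone these were 5 genes, Col2a1, Col3a1, Col5a1, Col18a1 and Col24a1 (9.09% of all genes), with folds of 4.41 to 8.71. Col3a1, the type III chain that fibroblasts co-express with type I, had its replicate 1 peak 45 bp from the start at a fold of 6.57. In replicate 2 alone there were 4 genes, Col5a2, Col11a1, Col14a1 and Col17a1 (9.77% of all genes), with folds of 5.78 to 15.4. The highest was at Col11a1, a minor fibrillar chain of cartilage, 44 bp from an end.

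The promoter windows of the 3 genes bound at their starts are printed here with the shared start region of Col4a1 and Col4a2, which had no shared peak. Each runs 5′ to 3′ on the gene's strand from 250 bases before to 50 bases after the start, from the RefSeq table on GRCm38.p6. Capitals mark matches to CCAAT or GGGCGG, the boxes known to bind NF-Y and Sp1, and to GGGTCA, a variant of the nuclear receptor half-site AGGTCA, each on either strand.
Col1a2, chr6:4505368-4505667, plus strand: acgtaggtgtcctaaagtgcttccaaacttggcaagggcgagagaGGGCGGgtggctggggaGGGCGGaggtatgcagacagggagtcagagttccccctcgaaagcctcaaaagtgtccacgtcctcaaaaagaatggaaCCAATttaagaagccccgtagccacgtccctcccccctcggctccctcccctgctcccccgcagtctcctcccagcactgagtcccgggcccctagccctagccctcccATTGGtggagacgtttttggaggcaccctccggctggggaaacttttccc
Col16a1, chr4:130047590-130047889, plus strand: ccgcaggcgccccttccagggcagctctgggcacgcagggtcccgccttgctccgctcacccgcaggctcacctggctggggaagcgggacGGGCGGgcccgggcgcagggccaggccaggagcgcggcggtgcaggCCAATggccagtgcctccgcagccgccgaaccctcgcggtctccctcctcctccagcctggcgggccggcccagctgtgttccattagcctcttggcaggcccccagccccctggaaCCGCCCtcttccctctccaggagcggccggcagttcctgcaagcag
Col6a2, chr10:76623355-76623654, minus strand: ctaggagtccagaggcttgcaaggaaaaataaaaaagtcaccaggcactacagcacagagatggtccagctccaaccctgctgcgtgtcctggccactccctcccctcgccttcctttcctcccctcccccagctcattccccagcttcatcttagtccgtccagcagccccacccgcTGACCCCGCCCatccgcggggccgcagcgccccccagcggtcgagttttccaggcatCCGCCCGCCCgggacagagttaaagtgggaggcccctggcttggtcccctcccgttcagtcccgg
Col4a1, chr8:11312777-11313076, minus strand: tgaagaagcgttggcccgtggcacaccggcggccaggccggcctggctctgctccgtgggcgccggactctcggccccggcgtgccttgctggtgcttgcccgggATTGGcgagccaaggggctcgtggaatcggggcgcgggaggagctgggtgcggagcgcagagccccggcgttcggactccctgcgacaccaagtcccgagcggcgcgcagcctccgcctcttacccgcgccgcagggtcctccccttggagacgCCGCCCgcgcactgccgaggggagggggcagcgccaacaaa
Col4a2, chr8:11312555-11312854, plus strand: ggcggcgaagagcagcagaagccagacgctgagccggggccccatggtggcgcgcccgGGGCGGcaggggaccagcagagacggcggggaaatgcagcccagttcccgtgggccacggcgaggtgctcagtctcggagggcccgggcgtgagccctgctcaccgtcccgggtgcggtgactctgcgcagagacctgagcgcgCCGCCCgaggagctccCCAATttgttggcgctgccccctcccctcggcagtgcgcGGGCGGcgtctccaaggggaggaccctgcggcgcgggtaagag

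Counted from the start, the Col1a2 window held CCAAT at −109 to −105, CCAAT on the opposite strand at 1 to 5, and GGGCGG at −205 to −200 and −188 to −183. The shared peak, in replicate 1 coordinates, covered 185 of its 300 bases. It began at −179, so both GGGCGG matches lay outside it, while the replicate 2 peak, from −214 to −34, covered them. The Col16a1 window, covered whole, held CCAAT at −113 to −109 and GGGCGG at −159 to −154 and, on the opposite strand, at 5 to 10. In the Col6a2 window, the opposite strand held GGGTCA at −72 to −67, which shares a base with the GGGCGG at −67 to −62. It was the only one of the 3 windows with a match to a half-site letter string, and the peak covered 174 of its bases. The windows of Col4a1 and Col4a2 overlap and run in opposite directions, and both hold CCAAT and GGGCGG.

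Over 38 promoter windows of 35 collagen genes, 3 (7.89%) overlapped a shared peak, against 29.0% of 21263 windows of all genes. AGGTCA on either strand occurred in 8 of 38 (21.1%) against 14.7% of all windows, and GGGTCA in 5 (13.2%) against 13.7%. None of the 3 bound windows held AGGTCA. The paired forms AGGTCANAGGTCA and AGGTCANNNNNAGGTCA occurred in no collagen window, and in 10 and 1 of all 21263. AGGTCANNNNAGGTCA occurred in no window at all. GGGCGG occurred in 23 of 38 collagen windows (60.5%) and 46.2% of all windows, CCAAT in 13 (34.2%) and 38.2%, TATAAA in 5 (13.2%) and 12.6%, and TGANTCA, the AP-1 string, in 1 (Col6a1, 2.63%) and 6.99%. The median GC content was 59.8% in collagen windows and 56.3% in all windows. Over all genes, windows under a shared peak had a median GC of 63.0% and windows under none 53.0%. A match is a description of letters, and the part of such matches or of GC content in binding was not tested.

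**Figure D2:**
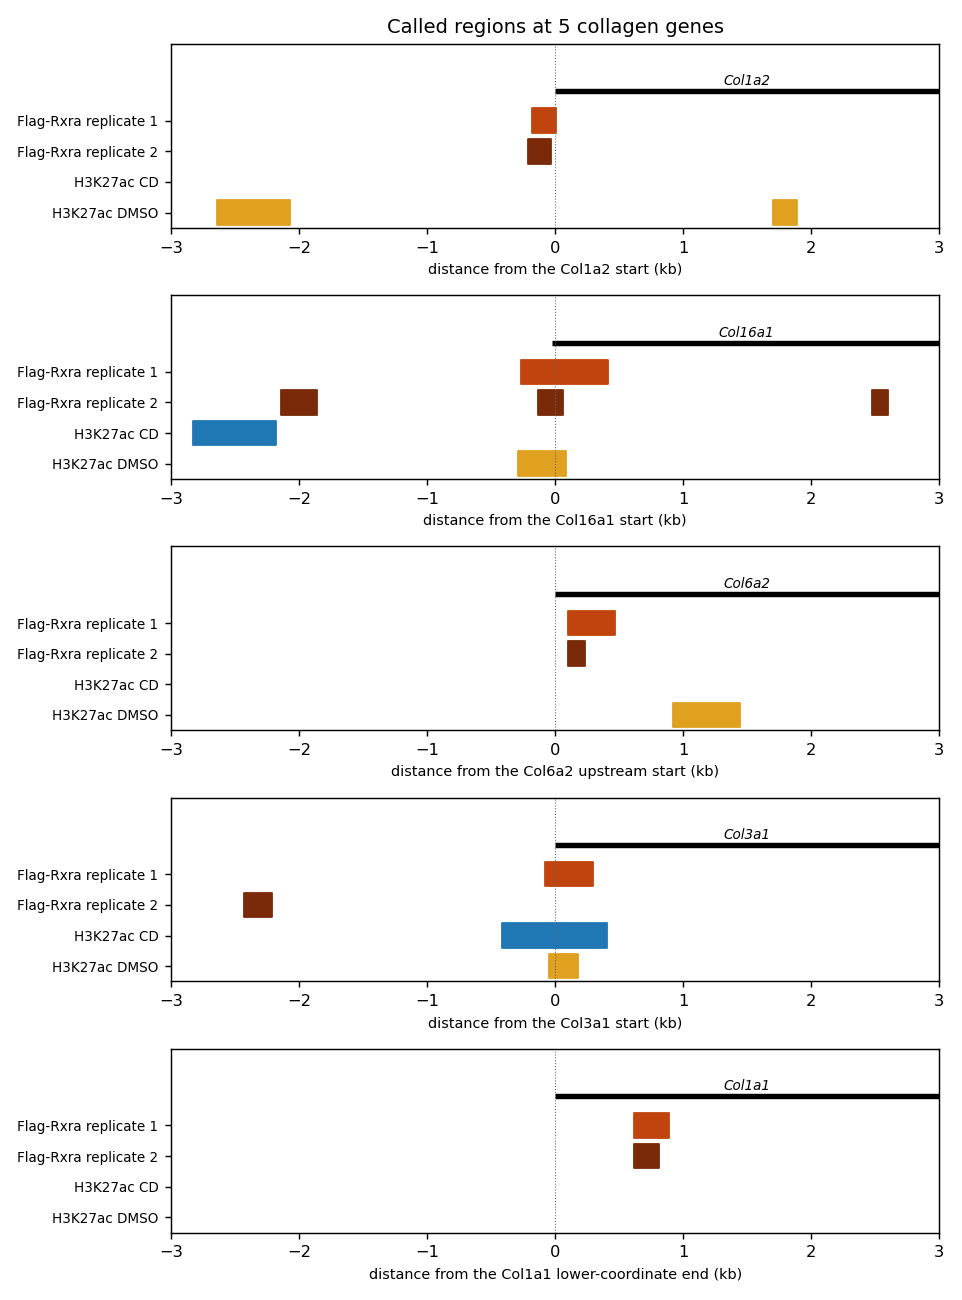
Called regions within 3 kb of the starts of Col1a2, Col16a1, Col6a2 and Col3a1 and of the lower-coordinate end of Col1a1, for which no start was annotated in the table used. The horizontal axis is the distance in kb along the gene, and rows are the Flag-Rxra replicates and the H3K27ac lists of CD and DMSO cells. Both replicates have a peak at Col1a2, Col16a1, Col6a2 and Col1a1, while at Col3a1 both H3K27ac lists but only replicate 1 have a region over the start.

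Inside the genes, 23 of 44 had a shared summit (29.1% of all genes) and the 42 summits were unevenly spread. The neighbouring basement membrane genes Col4a1 and Col4a2, which are transcribed away from each other from a common start region, held 4 and 5, and Col27a1, a fibrillar chain of cartilage, held 4. Col12a1, a FACIT chain on type I fibrils, held 3, as did the membrane-spanning Col13a1 and the multiplexin Col15a1. The strongest peak inside Col4a1, at chromosome 8, 11249662 to 11250013, had folds of 14.8 and 24.3 in replicates 1 and 2. Col15a1 reached 16.1 and 24.4 at chromosome 4, 47310802 to 47311076, 2220 bp from its 3′ end. Col12a1 reached 17.2 and 21.8 at chromosome 9, 79617456 to 79617655. None of the 9 summits in Col4a1 and Col4a2 was closer than 4019 bp to the Col4a2 start.

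**Figure D3:**
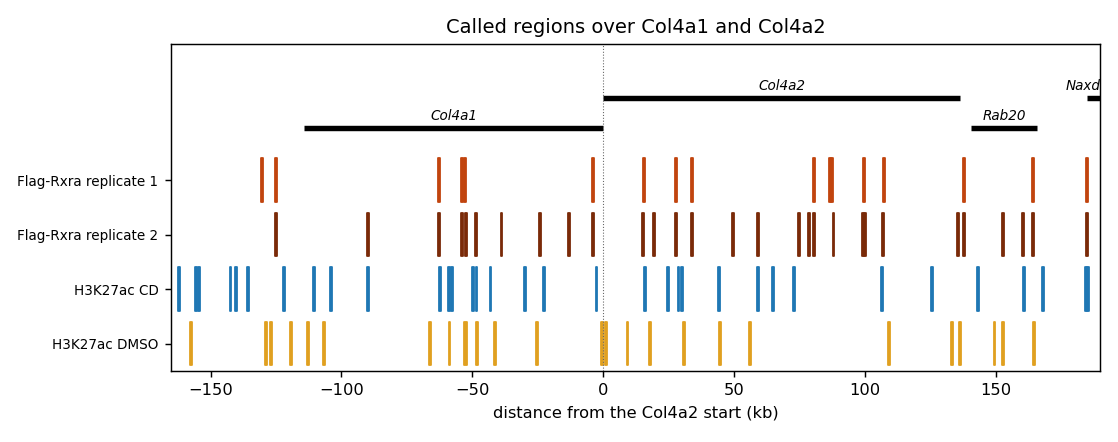
Called regions over Col4a1 and Col4a2, plotted by distance in kb from the Col4a2 start, with rows for each Flag-Rxra replicate and for H3K27ac in CD and DMSO cells. Regions narrower than the line are drawn at a minimum width. Flag-Rxra peaks lie inside both genes and past the 3′ end of Col4a2, and the regions flanking the common start are in the DMSO row only.

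The highest folds over all 42 were those of a peak inside Col4a6, a basement membrane chain on the X chromosome, and of one inside Col23a1. The Col4a6 peak, at chromosome X, 141276529 to 141276744, had folds of 38.3 in replicate 1 and 42.4 in replicate 2. The Col23a1 peak, at chromosome 11, 51455601 to 51455973, had folds of 30.0 and 43.3. Both lay in the strongest H3K27ac regions of the whole gene set, where the −log10 q was 67.7 in CD and 40.6 in DMSO cells for Col4a6, and 52.1 in CD and 32.7 in DMSO cells for Col23a1. A peak inside Col19a1, a FACIT chain, had Flag-Rxra folds of 11.5 and 12.2 and the next highest H3K27ac values (−log10 q 20.3 in CD and 28.9 in DMSO cells). These 3 places were thus called in every list, with both antibodies and in both conditions. No control list was used here, and whether these places give signal in any library was not tested.

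Over the 42 peaks the median fold was 10.1 (range 5.33 to 38.3) in replicate 1 and 14.3 (5.90 to 43.3) in replicate 2. The fold was higher in replicate 2 at 33 of them. Over all gene bodies it was so at 7816 of 9370 shared peaks, with medians of 10.1 and 14.1. As a description over 42 peaks that share libraries, Spearman's rho between the replicates was 0.578, and over all peaks in gene bodies 0.555. Other strong peaks were at Col5a2, a partner chain of type I fibrils (folds of 19.1 and 23.8), and at Col14a1, a FACIT chain of skin and tendon (20.5 and 16.1). Col6a3, the large chain of type VI filaments, reached 15.4 and 19.8. Col2a1, the fibrillar collagen of cartilage, had 9.27 in replicate 1 against 21.0 in replicate 2, and Col7a1, the anchoring fibril chain under the epidermis, had 8.77 and 24.6, so the size of those peaks was not alike between replicates.

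**Figure D4:**
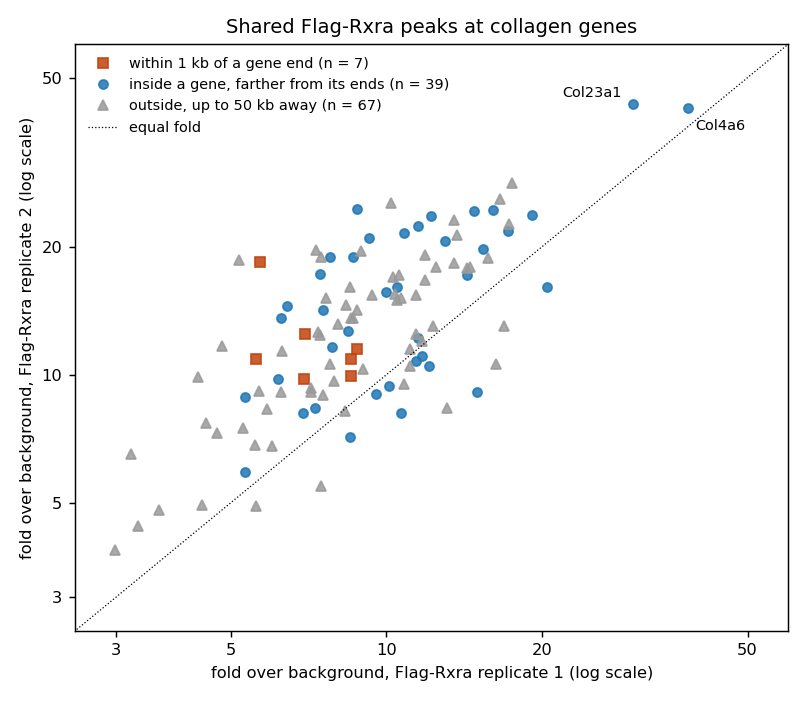
Fold over background of each shared Flag-Rxra peak in or within 50 kb of a collagen gene, replicate 1 on the horizontal and replicate 2 on the vertical axis, both log scales. Squares are the 7 peaks within 1 kb of a gene end, circles the 39 others inside a gene and triangles the 67 others outside. The end peaks lie below 9 in replicate 1, and the Col4a6 and Col23a1 peaks stand highest.

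Most in-body peaks lay outside H3K27ac regions. Of 42, 4 (9.52%) overlapped a region in CD only, 6 (14.3%) in DMSO only, 5 (11.9%) in both and 27 (64.3%) in neither. Of the 9370 shared peaks in the bodies of all genes, 11.6% did so in CD only, 19% in DMSO only, 15.6% in both and 53.8% in neither. The 5 in both were those of Col4a6, Col23a1, Col19a1, Col13a1 and Col27a1. Peaks in CD regions only were at Col2a1, Col6a3, Col12a1 and Col14a1, with a −log10 q of 1.07 to 1.63, close to the floor of that list. Peaks in DMSO regions only were at Col4a1, Col5a1, Col5a2, Col7a1, Col15a1 and Col16a1, with a −log10 q of 1.18 to 2.0.

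With the flanks added, 113 shared peaks lay in a collagen gene or within 50 kb of it, 71 of them with a summit outside the genes. Within 50 kb of the ends the share of genes with a shared peak was 72.7% of collagen genes and 68.1% of all genes, and 81.8% against 75.9% with replicate 1 alone and 93.2% against 81.8% with replicate 2 alone. No shared peak lay in or within 50 kb of 11 genes: Col4a3, Col4a4, Col4a5, Col6a1, Col6a4, Col6a5, Col8a1, Col9a1, Col11a1, Col20a1 and Col22a1. That window, with the whole gene, was not counted over all genes, and the shares above are for 50 kb around the ends only. Among the 11 genes, Col4a3, Col4a4 and Col4a5 encode the chains of the basement membrane of the kidney filter, and Col11a1 and Col9a1 chains of cartilage fibrils. Some flanking peaks belong to the ends of other genes. A peak 40005 bp from Col15a1 (folds of 15.7 and 18.8) lay at an end of Tgfbr1, a TGF-β receptor, and one 7113 bp from Col11a2 (5.57 and 6.82) within 1 kb of ends of both Slc39a7, a zinc transporter gene, and Rxrb, a paralogue of Rxra. In the flank of Col19a1, a pair of broad peaks at chromosome 1, 24611708 to 24614614 and 24614793 to 24616138, stood apart with folds of 3.31 to 4.82 and a −log10 q between 1290 and 1610 (replicate 1) and between 1140 and 1370 (replicate 2). Both also overlapped an H3K27ac region in CD (−log10 q 5.6) and in DMSO cells (7.31), so they were called in every list. Whether this place gives signal in any library was not tested.

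At gene ends, H3K27ac was called at fewer collagen genes in CD cells than in DMSO cells, while over all genes it was called at slightly more. A region lay within 1 kb of an end of 10 of 44 genes in CD cells (22.7%, exact 95% interval 11.5 to 37.8%, against 38.3% of all genes) and of 19 of 44 in DMSO cells (43.2%, 28.3 to 59.0%, against 35.8%). The DMSO share of collagen genes was near that of all genes, and the CD share below it. By gene, 7 had a region in CD and none in DMSO (15.9% against 17.1% of all genes), 16 in DMSO and none in CD (36.4% against 14.6%), 3 in both (6.82% against 21.2%), and 18 in neither (47.0% of all genes). Within 2.5 kb of the ends, 20 genes had a region in CD cells (45.5% against 56.2%) and 23 in DMSO cells (52.3% against 49.4%). Farther out nearly every gene had one: 43 in CD (89.3% of all genes) and 42 in DMSO cells (83.3%) within 50 kb, and 41 in CD (93.2% against 64.7%) and 37 in DMSO cells (84.1% against 58.0%) inside the gene. Collagen genes are longer, and per length they held fewer regions. Region midpoints per 100 kb of collagen gene body numbered 4.78 in CD and 3.82 in DMSO cells, against 5.45 and 4.02 over all gene bodies. At annotated starts the counts were 5 of 35 genes in CD cells (14.3% against 32.5%) and 11 of 35 in DMSO cells (31.4% against 32.2%).

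Most end regions were near the floor of the lists, as were most regions anywhere. Of 11 end regions in CD cells, 3 reached a −log10 q of 2, the highest 4.01, and of 22 in DMSO cells 6 did, the highest 3.03, or 27.3% in each, against 13.8% of the whole CD list and 18.3% of the whole DMSO list. The median −log10 q was 1.37 in CD and 1.57 in DMSO cells, against 1.39 and 1.5 over the whole lists. Counting only those, 3 of 44 collagen genes were marked in CD cells (6.82% against 6.65% of all genes) and 6 in DMSO cells (13.6% against 8.83%). At that cutoff the CD count stayed below the DMSO count, as it was with all regions (10 and 19 genes). The CD share, on few genes, was then no longer below that of all genes. The CD list was also reduced to its strongest regions until it covered as many bases as the DMSO list. With that list 8 of 44 collagen genes were marked in CD cells, against 34.2% of all genes.

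Within 1 kb of an end, 38.3% of all genes were marked in CD cells and 35.8% in DMSO cells. The fibrillar genes carried much of the gap among collagen genes, with 1 of 11 marked in CD cells and 7 of 11 in DMSO cells. Col3a1 was the one marked in both, by a CD region at chromosome 1, 45311123 to 45311946 (fold 3.29, −log10 q 1.65) and a DMSO region at 45311489 to 45311715 (fold 3.02, −log10 q 1.66), each over the start. Col2a1, Col5a2, Col5a3, Col11a2, Col24a1 and Col27a1 were marked in DMSO only. For some of them that rests on the 1 kb limit. At Col11a2 a CD region 1246 bp from the end overlapped the DMSO region, which was 963 bp from it. At Col27a1 a CD region beyond 1 kb overlapped the DMSO region, which was 915 bp from the end. At Col24a1 a CD region lay at 1442 bp, beside a DMSO region at 736 bp. Neither type I gene had a region within 1 kb in either list. Col1a2 had DMSO regions 2070 bp before and 1702 bp after its start and no CD region within 2.5 kb, and Col1a1 had no region within 2.5 kb in either list, although it is among the most transcribed genes of fibroblasts. For the network-forming and filament genes, type IV had 0 of 6 marked in CD and 2 of 6 in DMSO cells, and type VI had 2 of 6 in each. The type IV pair was Col4a1 and Col4a2, whose common start was flanked by DMSO regions at chromosome 8, 11311943 to 11312242 (−log10 q 1.87) and 11313666 to 11313871 (1.23).

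Among the rest, FACIT genes had 1 of 9 marked in CD and 3 of 9 in DMSO cells, and the multiplexins 1 of 2 in CD and 2 of 2 in DMSO cells. Transmembrane genes had 3 of 4 in CD and 2 of 4 in DMSO cells, short-chain genes 1 of 3 in CD and 0 of 3 in DMSO cells, and the anchoring and other genes 1 of 3 in each. These classes are small, and 38.3% of all genes were marked in CD and 35.8% in DMSO cells. The strongest end region in CD cells was 918 bp from the 3′ end of Col23a1 (fold 4.30, −log10 q 4.01). In DMSO cells it was 828 bp from an end of Col9a3, a cartilage FACIT chain (fold 3.75, −log10 q 3.03). At Col18a1 and Col23a1, counted as marked in both, the CD and DMSO regions within 1 kb did not overlap each other.

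Over wider windows, more genes had an excess in CD than in DMSO cells. In the gene and 50 kb to each side, CD regions covered more bases than DMSO regions at 29 of 44 genes (65.9%, against 59.5% of all genes) and fewer at 15 (34.1%, against 31.3%). The median cover was 3775 bases in CD and 3398 in DMSO cells over the collagen genes, and 3129 in CD and 2556 in DMSO cells over all genes. The median of the differences of CD minus DMSO was 608 bases over collagen genes and 282 over all genes. The CD list covers more of the genome, and these values are not scaled for it. Nor are they scaled for gene length, and collagen genes are longer, so their windows are wider. With the CD list reduced to its strongest regions until it covered as many bases as the DMSO list, 24 genes had more in CD (46.3% of all genes) and 20 fewer (42.6%), with a median of 71.5. With regions of a −log10 q of 2 or more in both lists, 19 had more in CD (34.8% of all genes) and 22 fewer (39.5%), and the median was −19. With only the 50 kb around each end counted, 25 had more in CD (59.0% of all genes) and 19 fewer (31.5%). The median difference was then 375 bases over collagen genes and 262 over all genes. Within 2.5 kb of the ends, 14 genes had more covered bases in CD (31.8%, against 35.8% of all genes) and 17 fewer (38.6%, against 32.1%), with means of 218.3 bases in CD and 313.8 in DMSO cells against 319.8 and 320.1 over all genes. In the gene bodies alone, 25 had more in CD (56.8%, against 43.1%) and 17 fewer (38.6%, against 29.0%). That order turned round with matched covered lengths, where 18 had more and 22 fewer (36.4 and 33.7% of all genes), and at a −log10 q of 2 or more, where 10 had more and 16 fewer (17.1 and 18.1% of all genes). Around collagen genes, 13.6% of 516 CD regions overlapped a DMSO region, near the 13.9% of the whole CD list, and of 426 DMSO regions 16.2% overlapped one in CD (19.2% of the whole DMSO list).

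By class, all 6 type IV genes had more covered bases in CD, at 3 loci. Over all genes, 59.5% had more and 31.3% fewer. For Col4a5 the excess was 263 bases, from 1 region inside the neighbouring gene Col4a6. Col4a1 had 8137 bases in CD and 6093 in DMSO cells, Col4a2 6836 in CD and 5403 in DMSO cells, and Col4a4 3747 in CD and 1592 in DMSO cells. Of 6 type VI genes, 5 had fewer. Col6a3 had 4091 in CD and 9269 in DMSO cells, the largest deficit of any collagen gene, Col6a1 3477 in CD and 4435 in DMSO cells, and Col6a2 2785 in CD and 3869 in DMSO cells, while Col6a6 had 3080 in CD and 1696 in DMSO cells. With covered lengths matched between the lists, the counts were again 6 of 6 more for type IV and 5 of 6 fewer for type VI. With regions of a −log10 q of 2 or more, they were 4 of 6 more for type IV, and 3 more and 3 fewer for type VI. Over all genes the shares with more and fewer were 46.3 and 42.6% with matched lengths, and 34.8 and 39.5% at that −log10 q. Neighbouring genes share much of their windows, so neither class holds 6 separate measurements.

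The fibrillar genes were divided, with 7 more and 4 fewer in CD (59.5 and 31.3% of all genes). With matched lengths 4 had more and 7 fewer (46.3 and 42.6% of all genes). The type I chains pointed opposite ways. Col1a1 had 4829 bases covered in CD cells and 2287 in DMSO cells, and Col1a2 1348 in CD and 3452 in DMSO cells. Col3a1 had 3856 in CD and 3027 in DMSO cells. Col5a1 had 7570 in CD and 9840 in DMSO cells, and Col11a2, a cartilage chain, 1846 in CD and 4871 in DMSO cells. Within 2.5 kb of the ends, 2 fibrillar genes had more in CD, 7 fewer and 2 the same (35.8, 32.1 and 32.1% of all genes).

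Of the FACIT genes, 6 of 9 had more in CD, near the 59.5% of all genes. At a −log10 q of 2 or more 4 had more and 4 fewer (34.8 and 39.5% of all genes). Col14a1 had 5590 in CD and 2014 in DMSO cells, the largest excess with all regions counted. At a −log10 q of 2 or more it had 730 in CD and 1000 in DMSO cells, and with matched lengths its excess of 1791 was below those of Col7a1 (2926) and Col20a1 (2536). Col20a1, another FACIT chain, had 5169 in CD and 2131 in DMSO cells. Col9a3 had 3040 in CD and 5411 in DMSO cells. Col7a1 had 7519 in CD and 4402 in DMSO cells. Col26a1 had 6158 in CD and 3340 in DMSO cells, but 210 in CD and 1077 in DMSO cells at a −log10 q of 2 or more. The multiplexin Col18a1, the source of endostatin, had 8760 in CD and 6340 in DMSO cells. Col8a1, a short-chain collagen of vessel walls, had 1280 in CD and 2840 in DMSO cells.

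**Figure D5:**
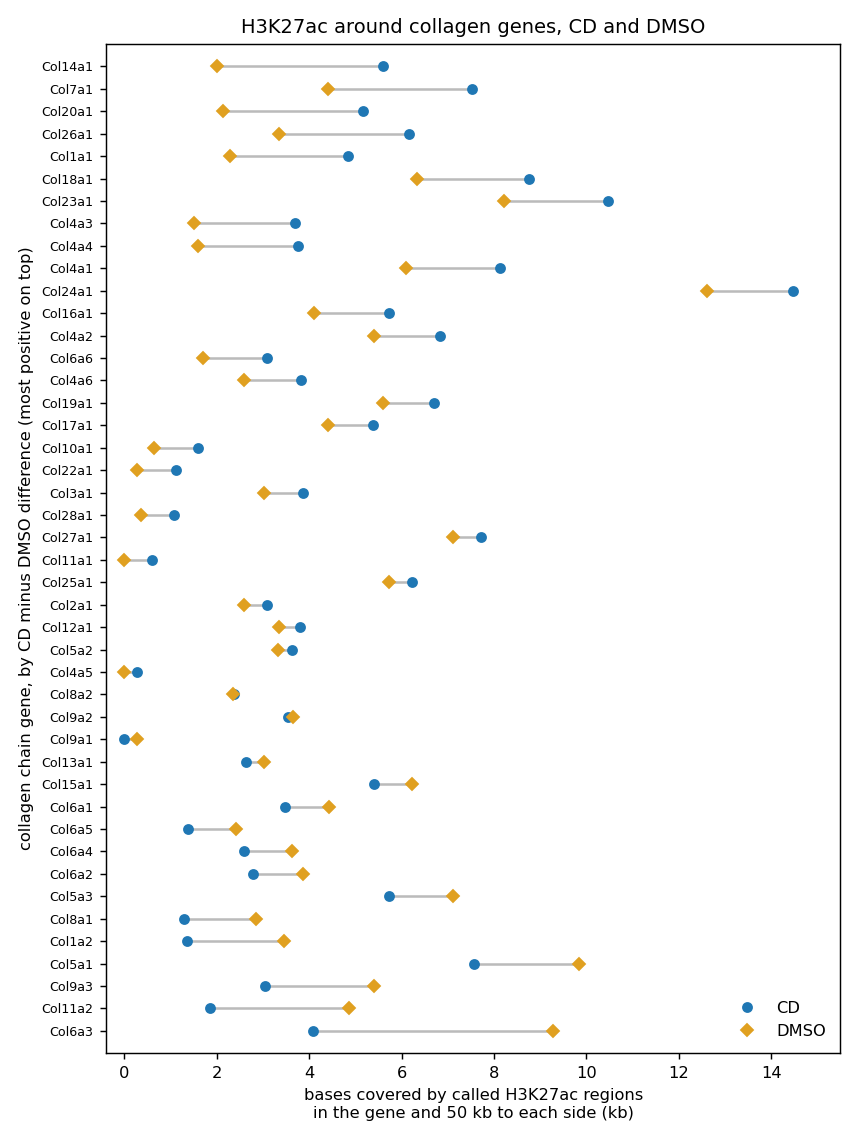
Bases (kb) covered by called H3K27ac regions in each collagen gene and 50 kb to each side, for CD cells (circles) and DMSO cells (diamonds), with genes ordered by the difference of CD minus DMSO. Lines join the values of 1 gene, each from 1 list with no replicate. With all regions counted, Col14a1 shows the largest excess in CD and Col6a3 the largest deficit. Col14a1 does not keep that place with matched lengths or at a −log10 q of 2 or more.

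The genes that make, join, bind and degrade collagen were set beside the chains. A shared Flag-Rxra peak lay within 1 kb of an end of 22 of 47 (46.8%), against 32.6% of all genes and 15.9% of the chains. Of 18 genes for modification and folding in the endoplasmic reticulum, 10 had one. Mia3, which loads procollagen into transport carriers, had folds of 17.9 in replicate 1 and 25.3 in replicate 2. P4ha1, a prolyl 4-hydroxylase subunit, had 14.0 and 26.2, and P3h1, a prolyl 3-hydroxylase, 15.8 and 20.6. Serpinh1, the collagen chaperone HSP47, had 5.32 and 7.66. The neighbours P3h4 and Fkbp10 share 1 peak.

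Of 13 genes for procollagen processing and crosslinking, 5 had a shared peak, among them Loxl2, a lysyl oxidase, with folds of 8.41 and 13.7. Of 9 receptors, 5 had one, and the highest folds were those of Itga10, a collagen-binding integrin of cartilage, at 14.0 and 23.1. Of 7 degradation genes, Mrc2, an uptake receptor, and Mmp14, a membrane collagenase, had one. H3K27ac marked the ends of 23 of the 47 in CD (48.9%, against 38.3% of all genes) and 24 in DMSO cells (51.1%, against 35.8%). For modification and folding these were 12 of 18 in CD and 8 of 18 in DMSO cells, and for processing and crosslinking 2 of 13 in CD and 5 of 13 in DMSO cells. Of the receptors, 5 of 9 were marked in CD and 6 of 9 in DMSO cells, and of the degradation genes 4 of 7 in CD and 5 of 7 in DMSO cells. Within the gene and 50 kb, 30 of 47 (63.8%) had more covered bases in CD, near the 59.5% of all genes, and 17 fewer, with a median difference of 240 bases, near that of all genes. P3h4 had 5041 in CD and 1208 in DMSO cells, and Mmp14 5017 in CD and 8354 in DMSO cells.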

How the data were processed

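Per the labels, CUT&Tag libraries were made from 6 samples. The tools in the submitters' processing notes are Bowtie2 2.2.5, fastp 0.20.1, deepTools 3.4.3 and MACS2 2.1.2, and the build is mm10 (GRCm38). Use of a control library and the way H3K27ac replicates were combined are not given in the sources used here. The authors deposited broadPeak lists for H3K27ac and narrowPeak lists for Flag-Rxra. Each deposited row gives a score, a fold over background (a ratio), and the −log10 p and −log10 q value. Depth is unknown.

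Genes came from RefSeq GRCm38.p6, which matched the files' build. Overlap needed 1 bp. A peak was shared when a replicate 1 peak overlapped a replicate 2 peak, and it kept replicate 1 coordinates. An end was either coordinate end of a gene. Collagen classes follow textbook families. Covered bases were counted once per list. Intervals are exact (Clopper-Pearson) at 95%. There was 1 list per H3K27ac condition and no test was made between conditions. Overlap counting was tested on simulated intervals. Python 3.11.15, numpy 2.4.6, pandas 2.3.3, scipy 1.17.1 and matplotlib 3.10.9 were used. Alternatives were a stricter q, a 50% overlap, 2.5 kb windows, 1 gene per locus, single replicates, fold-weighted cover, leaving out peaks in strong H3K27ac regions, annotated starts, the CD list reduced to its strongest regions by −log10 q to match the bases the DMSO list covers, and windows around ends only. Annotated starts, ends-only windows and the matched list at gene ends were chosen after seeing the data. The genes and lists were chosen with earlier results of these data known. Genes named for CD and DMSO were the 6 with the largest differences each way and the 6 with the most shared summits, beside those of the class descriptions.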

Additional observations from a re-analysis of the deposited data

How the results depend on the processing

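Values without replicate 1 or replicate 2 of Flag-Rxra were 11 to 12 genes for peaks at ends (7 with both) and 63 to 124 summits in gene bodies (42 with both). Over all genes the end shares were 42.1% without replicate 1 and 41.7% without replicate 2. Summits per 100 kb without replicate 1 numbered 2.28 in collagen bodies and 2.37 in all bodies. Without replicate 2 they numbered 1.16 and 1.5. Genes with a shared end peak numbered 3 at a −log10 q of 20 or more (24.2% of all genes), 4 with 50% overlap (20.2%), 11 within 2.5 kb (37.0%) and 3 at annotated starts (34.3%). In the 5.443 Mb of collagen gene bodies, shared summits numbered 26 at a −log10 q of 20 or more and 30 with 50% overlap. All gene bodies had 0.558 and 0.56 per 100 kb at these settings. Genes marked by H3K27ac at ends numbered 3 in CD (6.65% of all genes) and 6 in DMSO (8.83%) at a −log10 q of 2, and 20 in CD within 2.5 kb (56.2%). With matched covered lengths they numbered 8 in CD (34.2%), and at starts 5 in CD (32.5%) and 11 in DMSO (32.2%). With regions of a −log10 q of 2 or more, genes with more covered bases in CD numbered 4 within 2.5 kb (9 fewer), 19 within 50 kb (22 fewer) and 10 in bodies (16 fewer). Over all genes the shares with more and fewer were 9.69 and 11.8% within 2.5 kb, 34.8 and 39.5% within 50 kb, and 17.1 and 18.1% in bodies. The median difference within 50 kb turned to −19 bases, where all genes had 0. With matched covered lengths, genes with more in CD numbered 8 within 2.5 kb (21 fewer), 24 within 50 kb (20 fewer) and 18 in bodies (22 fewer). Over all genes 31.3, 46.3 and 36.4% had more, and 34.1, 42.6 and 33.7% fewer. The median within 50 kb was 71.5, where all genes had 0. With covered bases weighted by the fold of their region the median was 2060.4 (1020.9 over all genes). With windows around the ends only it was 375 (262 over all genes), and 25 genes had more in CD (59.0% of all genes). With 1 gene per locus, 23 of 36 had more in CD (59.5% of all genes) and 13 fewer (31.3%). In all, 14 values under alternatives stayed within 1.5 times the reported ones, 20 moved farther and 1 changed sign. The cause of these changes was not tested. No paired analysis was possible because the H3K27ac replicates of a condition have a common list and Flag-Rxra had no second group.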

Other observations

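Col24a1, a minor fibrillar chain, had the most covered H3K27ac bases of any collagen gene within the gene and 50 kb, 14468 in CD and 12621 in DMSO cells, and 1 shared Flag-Rxra summit in its body. Col4a5, a chain of the kidney basement membrane, had 263 in CD and 0 in DMSO cells, and no shared Flag-Rxra peak. Those 263 bases were 1 region (−log10 q 1.69) inside the neighbouring gene Col4a6.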
